A study of Mus musculus with 6 samples.

Results

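The genes of cholesterol and fatty acid synthesis were examined in MLL-AF9 leukemia from the bone marrow of transplanted mice. They were chosen by name as members of these pathways, with earlier results of these data known. There were 7 genes for the steps to farnesyl diphosphate and 11 for squalene and the sterol rings. Another 6 were for the sensing of sterols by SREBP and for sterol transport, and 8 for fatty acid synthesis, desaturation and elongation. These are 32 of the 55487 genes in the deposited table, and all 32 passed the filter on low values. The donor cells carried Mx1-Cre, both Brd9 alleles floxed (Brd9 fl/fl) and the MLL-AF9 (MA9) fusion, marked CD45.2, all on C57BL/6, and this holds for both groups. Each CD45.1 recipient received 1000 cells after irradiation at 450 cGy, called sublethal in the study's methods and given in repeated fractions by the labels. From the next day 3 doses of PBS or of pIpC at 20 mg/kg were given, and GFP+ cells of femora and tibiae were taken 10 days after injection in 3 PBS and 3 pIpC samples. pIpC imitates viral double-stranded RNA, and the interferon response to it switches on Cre from the Mx1 promoter in blood cells and in other responsive tissues. PBS animals carry the same floxed alleles without that induction, so pIpC itself and the loss of Brd9 cannot be told apart in this design. The study's methods name lineage-negative c-Kit+ cells where the sample labels name GFP+ cells, and GFP comes from the MLL-AF9 vector. Recipients were 6 weeks old, and no label states that the libraries came from separate mice, so p-values measure the spread between these libraries.

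Cholesterol is built from acetyl-CoA through mevalonate, isoprenoid diphosphates, squalene and lanosterol, and the same isoprenoids serve protein prenylation and ubiquinone. Fatty acids are built from acetyl-CoA by ATP citrate lyase, acetyl-CoA carboxylase and fatty acid synthase, and are then desaturated and elongated for membranes. Both branches are driven by SREBP transcription factors, which SCAP carries out of the endoplasmic reticulum when sterols are low and which INSIG proteins hold back when sterols are high. Proliferating blood cells are known to need both branches for new membrane.

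Reads on genes ranged from 19277439 to 23586722 per library. Brd9, the targeted gene, showed no fall under the pIpC label: 1926.8, 1946.4 and 1631.9 normalized counts in PBS replicates 1 to 3 against 2036, 2263 and 2011.4 (log2 fold change 0.20, standard error 0.13, limma adjusted p = 0.259). Excision of part of the gene need not lower its count, and the deposited counts are per gene, not per exon. This check therefore could not show whether Brd9 was deleted, and directions below are those of the label. PBS replicate 3 stood apart from the other PBS libraries in a way that followed transcript length, which touches many of the genes below and is given beside them. Of 8 leukemia and myeloid progenitor genes, 5 were lower, 1 was higher (Itgam, log2 fold change 1.45) and 2 were not called (Kit at -0.46 and Csf1r at 0.09). Among the lower were Hoxa9, Hoxa10 and Meis1, targets of the MLL-AF9 fusion (log2 fold changes -4.32, -6.38 and -4.01). All 12 neutrophil, all 10 erythroid and all 10 B cell markers tested were higher, where 25.0% of all genes were higher and 20.4% lower. In these bulk samples fewer cells of a type and less RNA per cell cannot be told apart.

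With all 6 libraries, called sterol enzymes were mostly lower in the pIpC libraries and called fatty acid enzymes were all higher. Both statements weakened without PBS replicate 3. A gene was called when limma on log2(normalized count + 1), in which fold changes of low genes are understated, gave a Benjamini-Hochberg adjusted p under 0.1 over all 15020 genes tested. Of the 32 genes, 13 were called (40.6%), against 45.3% of all genes tested, so the set was not called more often than other genes. In the pIpC libraries 6 were higher (Mvd, Insig2, Scd1, Scd2, Elovl6 and Fads2; 25.0% of all genes were higher) and 7 were lower (Mvk, Idi1, Fdps, Lss, Cyp51, Tm7sf2 and Dhcr7; 20.4% of all genes were lower). The 3 values of each group did not overlap in 17 of the 32, against 56.8% of all genes. Of these, 8 were higher and 9 lower, against 30.5% and 26.3% of all genes. Of the 18 sterol enzymes 1 was called higher and 7 lower, with a median log2 fold change of -0.41. Of the 8 fatty acid enzymes 4 were called higher and none lower, with a median of 0.59, and the median over all genes was 0.015. Among those called, Scd1 and Fads2 passed the filter on low values through the pIpC group alone and could only have differed upward. The other 6 fatty acid enzymes had a median of 0.33, with 2 called higher. Without PBS replicate 3 the calls were 10 higher and 11 lower, against 35.1% and 30.3% of all genes (65.4% called in either direction). Of the sterol enzymes 4 were then higher and 8 lower, with a median of -0.19. Of the fatty acid enzymes 4 were then higher and 1 lower (Fasn), with a median of 0.34.

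**Figure D1:**
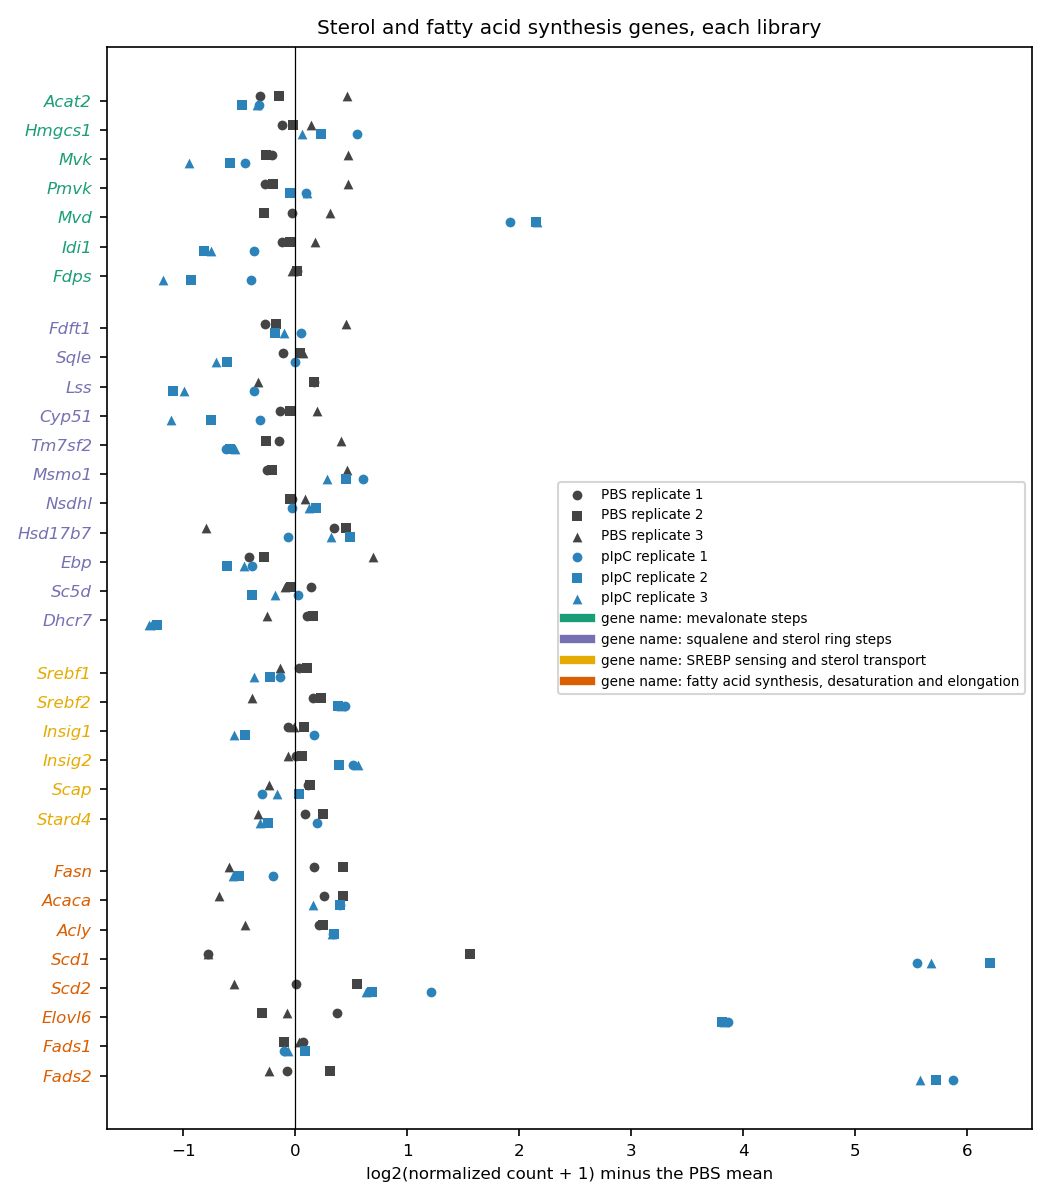
Each gene's level in the 6 libraries, as log2(normalized count + 1) minus the mean of the 3 PBS libraries (x axis), with PBS libraries in grey, pIpC libraries in blue and the replicate number as the marker shape. Fads2, Scd1, Elovl6 and Mvd lie far to the right in all 3 pIpC libraries, Dhcr7 lies to the left in all 3, and the other genes stay within about 1.3 log2 units of the PBS mean.

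The stretches before the start of 5 of these genes are printed because neighbours in one pathway were called differently in these libraries. They are Hmgcs1 (not called), Mvd (higher) and Mvk (lower) of the mevalonate steps, and Fasn (not called) and Elovl6 (higher) of the fatty acid branch. The sequences are from RefSeq on GRCm38.p6, run 5′ to 3′ towards the gene and end before its first annotated base. Capitals mark a sterol regulatory element core (TCACNCCA, bound by SREBP) or a CCAAT box (bound by NF-Y, a known partner of SREBP), on either strand, so that ATTGG is a CCAAT box on the other strand. The last 3 letters of the core may also begin a CCAAT box.
Hmgcs1, chr13:119690101-119690350, plus strand: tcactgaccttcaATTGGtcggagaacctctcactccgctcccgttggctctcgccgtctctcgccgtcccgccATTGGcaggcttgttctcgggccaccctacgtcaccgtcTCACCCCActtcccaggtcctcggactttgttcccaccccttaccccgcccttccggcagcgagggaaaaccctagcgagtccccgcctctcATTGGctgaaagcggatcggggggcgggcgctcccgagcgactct
Mvd, chr8:122443423-122443672, minus strand: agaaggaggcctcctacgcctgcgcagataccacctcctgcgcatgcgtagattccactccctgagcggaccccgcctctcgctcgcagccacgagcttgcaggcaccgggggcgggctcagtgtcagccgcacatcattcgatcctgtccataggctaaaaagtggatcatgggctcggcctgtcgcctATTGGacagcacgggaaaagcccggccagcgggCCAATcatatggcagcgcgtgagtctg
Mvk, chr5:114444019-114444268, plus strand: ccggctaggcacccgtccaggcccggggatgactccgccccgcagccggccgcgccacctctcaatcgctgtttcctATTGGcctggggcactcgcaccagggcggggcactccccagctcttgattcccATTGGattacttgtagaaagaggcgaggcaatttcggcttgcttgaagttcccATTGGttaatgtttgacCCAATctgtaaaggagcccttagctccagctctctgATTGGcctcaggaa
Fasn, chr11:120824548-120824797, minus strand: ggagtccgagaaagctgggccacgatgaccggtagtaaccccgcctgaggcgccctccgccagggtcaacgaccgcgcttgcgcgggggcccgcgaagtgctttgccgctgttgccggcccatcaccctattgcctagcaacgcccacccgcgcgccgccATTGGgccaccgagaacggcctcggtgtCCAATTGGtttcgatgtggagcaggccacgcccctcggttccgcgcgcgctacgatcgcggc
Elovl6, chr3:129532136-129532354, plus strand: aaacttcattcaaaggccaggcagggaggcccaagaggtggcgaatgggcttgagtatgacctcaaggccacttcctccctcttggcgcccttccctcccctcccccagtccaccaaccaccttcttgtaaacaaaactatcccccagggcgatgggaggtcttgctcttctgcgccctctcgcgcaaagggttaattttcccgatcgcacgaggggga
Of the motifs marked here, Hmgcs1 holds the core and CCAAT boxes, Mvd, Mvk and Fasn hold CCAAT boxes without the core, and Elovl6 holds neither. Both Mvd and Mvk hold CCAAT boxes, with Mvd called higher and Mvk called lower. Leaving out any pIpC library lost the call of Mvk. Whether the boxes bear on the direction was not tested.

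RefSeq windows of 250 bases before a start were found for 25 of the 32 genes, 33 windows in all because some genes have several starts. The core stood in 3 of the 33 (9.09%; Hmgcs1, Msmo1 and Srebf2), against 3.67% of 32851 windows of all genes. A CCAAT box stood in 60.6% of the windows against 33.8% of all. By branch it stood in 77.8% of 18 windows of sterol enzymes and in 1 of 5 windows (20%) of fatty acid enzymes, that of Fasn. An E-box (CACGTG) stood in 15.2% against 6.02%, and an Sp1 box (GGGCGG) in 72.7% against 32.7%. Of 15 sterol enzymes with a window 14 had a CCAAT box, Acat2 being the exception and Dhcr7 having it before only its most downstream start. Those with the box were called higher (Mvd), lower (Mvk, Idi1, Lss, Cyp51, Tm7sf2 and Dhcr7) or not called (among them Hmgcs1, Msmo1 and Sc5d). These are matches of letters, not sites of binding. Scd1, Scd2, Fads1, Sqle, Fdps, Fdft1 and Stard4 had no window here.

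In the mevalonate steps Mvd rose about 4-fold while Mvk, Idi1 and Fdps fell, and Hmgcs1 was not called. Mvd, the decarboxylase that makes isopentenyl diphosphate (chromosome 8, 122433601 to 122443422), had 219.8, 184.2 and 277.3 normalized counts in the PBS libraries and 850.3, 995.1 and 1000.8 in the pIpC libraries. All 3 pIpC libraries lay above all 3 PBS libraries, at 4.18 times the PBS mean (log2 fold change 2.07, standard error 0.19, limma adjusted p = 0.00025). Divided by transcript length, Mvd moved from rank 24 among the 32 genes in PBS to rank 4 in the pIpC libraries, 6.14 ± 0.66 against 23.6 ± 2.3 RPKM (reads per kb of transcript, scaled to the library's reads; SD, n = 3). None of its 100-base stretches was shared with another gene.

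Mvk, Idi1 and Fdps were called lower, while Pmvk, the step just before Mvd, was not called. Mvk, mevalonate kinase, had 259.6, 249 and 415.3 normalized counts in PBS and 218.6, 199.2 and 154.7 in the pIpC libraries (log2 fold change -0.66, standard error 0.26, limma adjusted p = 0.0867). The groups did not overlap, but PBS replicate 3 was the high value. The gene was still called without that library, at -0.43. Leaving out any pIpC library lost the call. Idi1, the isomerase that follows Mvd, had 1091, 1143 and 1334 normalized counts in PBS and 916.2, 674.3 and 700.1 in the pIpC libraries (log2 fold change -0.65, standard error 0.17, limma adjusted p = 0.0222). Its groups were apart, and it remained called with each library left out, although 21.9% of its 100-base stretches also lie in other gene models. Fdps, which makes farnesyl diphosphate, was at 105.6, 105.3 and 101.8 in PBS and at 78.85, 54.15 and 45.45 in the pIpC libraries (log2 fold change -0.84, standard error 0.26, limma adjusted p = 0.0445). The PBS libraries were nearly equal and the pIpC libraries spread, and without PBS replicate 2, pIpC replicate 2 or pIpC replicate 3 the call was lost. Fdps shares 21.4% of its 100-base stretches with pseudogenes and a gene model inside it, so its count is uncertain.

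Hmgcs1, the synthase that makes HMG-CoA, had 603.1, 646.8 and 719.7 normalized counts in PBS and 959.1, 765.2 and 680.8 in the pIpC libraries. The groups overlapped, and the log2 fold change of 0.28 (95% interval -0.12 to 0.67) was not called. Without PBS replicate 3 it was called at 0.35 (limma adjusted p = 0.0559). Acat2, the cytosolic thiolase at the head of the path, and Pmvk, phosphomevalonate kinase, were not called at log2 fold changes of -0.39 and 0.05. Without PBS replicate 3 Pmvk was called higher at 0.29 (limma adjusted p = 0.071). In Acat2, 28.9% of the stretches are shared with its copy Acat3 or with Tcp1.

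From squalene to cholesterol no gene was called higher and 4 of 11 were called lower (25.0% and 20.4% of all genes), with Dhcr7 showing the largest change of the 11. Dhcr7, the reductase that finishes one route to cholesterol (chromosome 7, 143823145 to 143848410), had 1005, 1042 and 783.1 normalized counts in PBS and 389.2, 395.4 and 377.1 in the pIpC libraries. The pIpC libraries lay within a narrow range at less than the lowest PBS value, and the PBS mean was 2.44 times theirs (log2 fold change -1.27, standard error 0.15, limma adjusted p = 0.000852). It was called with every single library left out, at log2 fold changes from -1.40 to -1.19. Per length it went from rank 6 to rank 21 of the 32 genes.

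Lss, lanosterol synthase, which closes the sterol rings, had 359.1, 359.3 and 253.5 normalized counts in PBS and 246.5, 149.2 and 159.6 in the pIpC libraries (log2 fold change -0.82, standard error 0.26, limma adjusted p = 0.0456). The lowest PBS library, replicate 3, and the highest pIpC library, replicate 1, nearly met, and without that PBS library the log2 fold change was -0.99. The call was lost without PBS replicate 1 or 2 or pIpC replicate 2 or 3. Cyp51, the demethylase that acts on lanosterol, had 524.3, 558.7 and 659.8 normalized counts in PBS and 464.1, 343.3 and 266.9 in the pIpC libraries (log2 fold change -0.73, standard error 0.23, limma adjusted p = 0.0456). All pIpC values were below all PBS values, and the call was lost without pIpC replicate 2 or 3. Sqle, squalene epoxidase, had 489.7, 543.5 and 552.3 normalized counts in PBS and 525, 345.3 and 323 in the pIpC libraries. Its pIpC replicate 1 lay within the PBS range while the others lay below it, and it was not called (log2 fold change -0.44, 95% interval -0.94 to 0.06). Without pIpC replicate 1 it was called, at -0.66 (limma adjusted p = 0.0377), and it was also called without PBS replicate 3, at -0.41 (limma adjusted p = 0.0993).

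The remaining steps spread on both sides of zero. Tm7sf2, a sterol reductase, was called lower (log2 fold change -0.58, limma adjusted p = 0.0763), and the call was lost without any of the pIpC libraries. Fdft1 (squalene synthase), Msmo1, Nsdhl, Hsd17b7, Ebp and Sc5d were not called, with log2 fold changes from -0.49 for Ebp, the sterol isomerase, to 0.45 for Msmo1, the methylsterol oxidase. Without PBS replicate 3 Msmo1 was called higher at 0.67 (limma adjusted p = 0.000692). Exons of Fdft1 lie over those of Ctsb on the other strand, and the labels give unstranded libraries, so 18.3% of its stretches could carry reads of either gene. Tm7sf2 shares 7.92% of its stretches with Vps51.

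**Figure D2:**
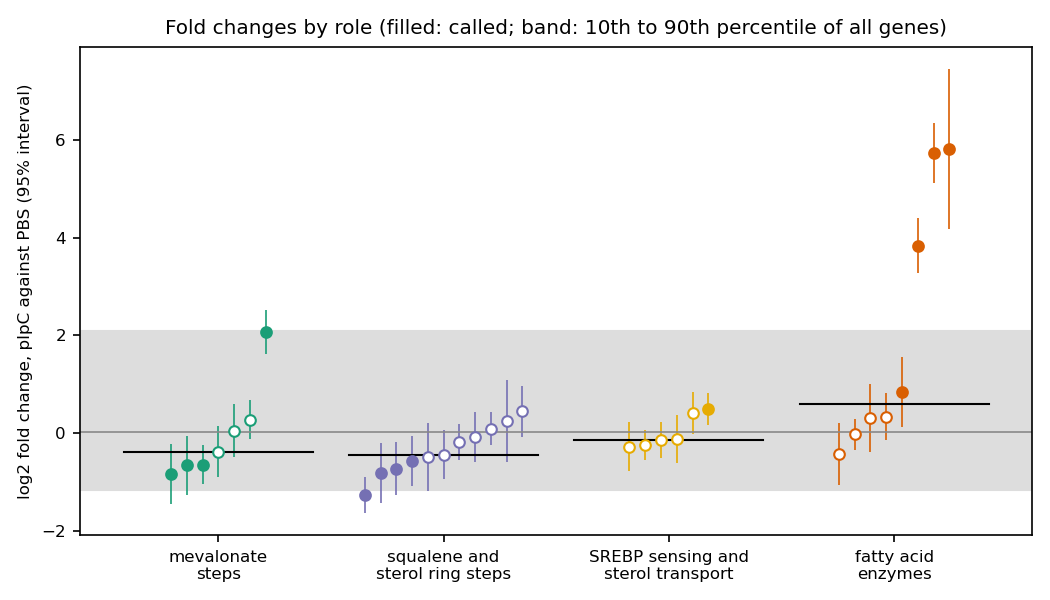
Log2 fold change of each gene, pIpC against PBS (y axis), by role, with the 95% interval from limma, filled where called, the median of each role as a black line and the 10th to 90th percentile of all genes (-1.16 to 2.09) as a grey band. Fads2, Scd1 and Elovl6 lie above the band and only Dhcr7 lies below it, while the sterol steps have medians of -0.39 and -0.44.

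Among the genes that sense sterols, Insig2 was called higher and the other 5 were not called. Srebf2 encodes the SREBP that chiefly drives sterol genes. It had 2375, 2500 and 1621 normalized counts in PBS and 2889, 2767 and 2821 in the pIpC libraries. The groups were apart, PBS replicate 3 was the low value, and the log2 fold change of 0.41 (standard error 0.18, limma adjusted p = 0.126) was not called, whereas without that library it was called at 0.21 (limma adjusted p = 0.0166). Srebf1 encodes the SREBP that chiefly drives fatty acid genes. It had 1338, 1409 and 1195 normalized counts in PBS and 1193, 1120 and 1017 in the pIpC libraries. It was not called (log2 fold change -0.24, limma adjusted p = 0.182), and without PBS replicate 3 it was called lower at -0.31 (limma adjusted p = 0.0124). Per length, Srebf1 stood at 0.734 ± 0.118 of Srebf2 in PBS and at 0.464 ± 0.033 in the pIpC libraries (SD, n = 3), the first of these raised by PBS replicate 3 at 0.871.

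Insig2, a retention protein of SCAP, had 267.4, 277.3 and 254.6 normalized counts in PBS and 381.3, 348.4 and 393.6 in the pIpC libraries. Every pIpC library was above every PBS library (log2 fold change 0.49, standard error 0.14, limma adjusted p = 0.0336), with the call lost without pIpC replicate 1 or 3. Its paralog Insig1, itself a known SREBP target, had 667.9, 736.9 and 694.8 normalized counts in PBS and 784.5, 511.9 and 477.7 in the pIpC libraries. Here pIpC replicate 1 was the highest of all 6 libraries and the other pIpC libraries were the lowest, so the gene was not called (log2 fold change -0.28, limma adjusted p = 0.333), and without pIpC replicate 1 it was called at -0.50 (limma adjusted p = 0.0673). Per length, Insig2 stood at 0.381 ± 0.017 of Insig1 in PBS and at 0.664 ± 0.17 in the pIpC libraries (SD, n = 3).

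Scap, the escort of SREBP, had 1332, 1347 and 1047 normalized counts in PBS and 1006, 1259 and 1103 in the pIpC libraries. The groups overlapped (log2 fold change -0.14, 95% interval -0.51 to 0.23). Stard4, a carrier of sterol between membranes, had 1291, 1438 and 960.8 in PBS and 1387, 1025 and 971.8 in the pIpC libraries, and also overlapped (log2 fold change -0.12, 95% interval -0.62 to 0.38). Neither was called, but without PBS replicate 3 Scap was called lower at -0.26 (limma adjusted p = 0.0459).

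In the fatty acid branch the genes that make palmitate were not called, and the large rises were in elongation and desaturation. Acly, ATP citrate lyase, had 5888, 6042 and 3730 normalized counts in PBS and 6438, 6464 and 6389 in the pIpC libraries. The groups were apart with PBS replicate 3 far below the rest, and the log2 fold change of 0.33 (95% interval -0.15 to 0.82) was not called. Per length it was the highest of the 32 genes in both groups, at 57.9 ± 20 and 63.3 ± 0.64 RPKM (SD, n = 3). Acaca, acetyl-CoA carboxylase, had 1283, 1442 and 668.8 normalized counts in PBS and 1415, 1414 and 1194 in the pIpC libraries. It overlapped between groups (log2 fold change 0.32, 95% interval -0.38 to 1.01), was at -0.03 without PBS replicate 3, and shares 23.7% of its stretches with other gene models. Fasn, fatty acid synthase, had 2918, 3494 and 1729 normalized counts in PBS and 2260, 1831 and 1764 in the pIpC libraries. PBS replicate 3 was the lowest of all 6, so the groups overlapped and the gene was not called (log2 fold change -0.42, 95% interval -1.06 to 0.22), whereas without that library it was called lower at -0.72 (limma adjusted p = 0.000782).

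Elovl6 elongates palmitate towards stearate (chromosome 3, 129532355 to 129638495). It had 32.88, 20.24 and 23.77 normalized counts in PBS and 380.3, 365.8 and 371.3 in the pIpC libraries. The pIpC libraries were nearly equal and about 14-fold above the PBS mean (log2 fold change 3.84, standard error 0.23, limma adjusted p = 5.64e-05).

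Fads1 and Fads2 encode desaturases of polyunsaturated fatty acid synthesis and lie near each other on chromosome 19 on opposite strands (10182888 to 10196877 and 10062765 to 10101746). Fads2, which acts at the entry to that route, had 5.191, 7.085 and 4.527 normalized counts in PBS and 382.3, 344.3 and 310.4 in the pIpC libraries. This was near absence against a moderate level in all 3 (log2 fold change 5.73, standard error 0.26, limma adjusted p = 2.4e-05). As shares of reads, 17 against 1041 reads gave a ratio of 55.7, with a 95% exact interval of 34.6 to 95.9 that covers counting error only. Fads1, which acts later, had 475, 423.1 and 465.1 normalized counts in PBS and 423.2, 481.2 and 434.2 in the pIpC libraries. The groups overlapped throughout, and the log2 fold change was -0.03 (95% interval -0.35 to 0.29). Per length, Fads2 was at 0.0137 ± 0.0041 of Fads1 in PBS and at 0.855 ± 0.119 in the pIpC libraries (SD, n = 3), so that the pair went from almost only Fads1 to nearly equal levels.

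Scd1 and Scd2 encode stearoyl-CoA desaturases, which make monounsaturated fatty acids, and are also neighbours on chromosome 19 on opposite strands (44394455 to 44407879 and 44293674 to 44306864). Scd1 had 0, 4.05 and 0 normalized counts in PBS and 79.84, 125.7 and 87.03 in the pIpC libraries. It was close to absent in PBS, with 4 reads over the group against 293, a ratio of read shares of 66.6 (95% exact counting interval 25.7 to 246; log2 fold change 5.82, standard error 0.69, limma adjusted p = 0.000817). The fitted value rests on the pseudocount, being 8.11 with 0.1 and 3.24 with 10 in place of 1, and the call held with both. Scd2 had 2064, 3008 and 1403 normalized counts in PBS and 4782, 3314 and 3181 in the pIpC libraries. The groups were apart, but PBS replicate 2 came close to the lower pIpC libraries (log2 fold change 0.84, standard error 0.30, limma adjusted p = 0.0684), and leaving out PBS replicate 1 or any pIpC library lost the call. Scd1 stayed the lowest of the 32 genes per length in both groups, and at 0.0309 ± 0.0120 of Scd2 in the pIpC libraries (SD, n = 3) the RNA of this pair remained almost wholly that of Scd2. Scd1 shares 2.58% of its 100-base stretches with other gene models, Scd2 among them.

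**Figure D3:**
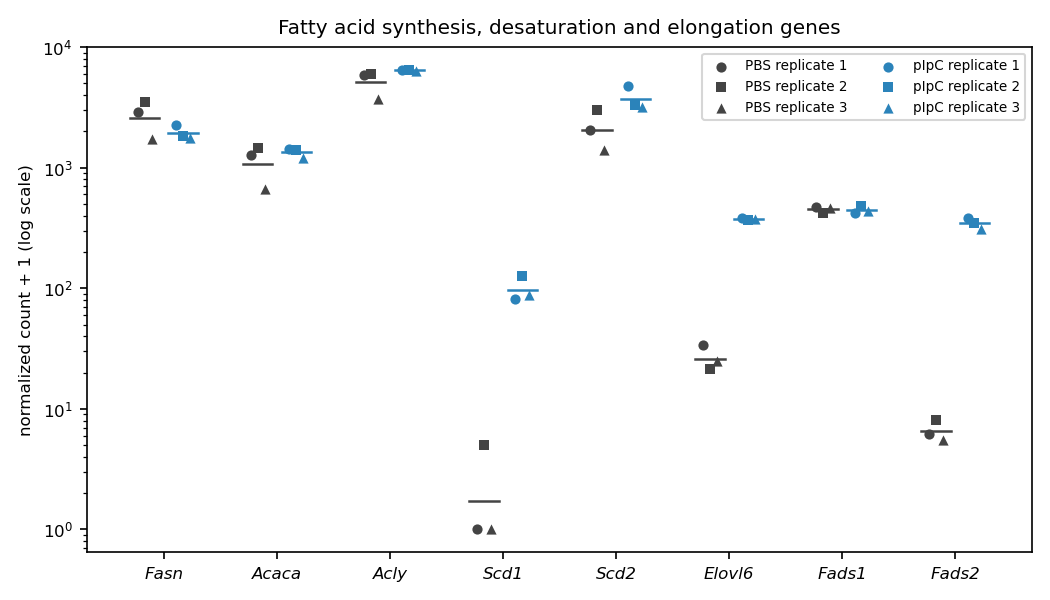
Normalized count + 1 of the 8 fatty acid genes (log y axis) in each library, PBS in grey and pIpC in blue, with the geometric mean of each group as a line. Scd1, Elovl6 and Fads2 lie at least 10-fold apart between groups, and Fads1 does not separate.

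Scd1 and Fads2 passed the filter on low values through the pIpC group alone, so they could only have differed upward. Without them the median of the remaining 6 fatty acid genes was 0.33, with 2 called higher (33.3%, against 25.0% of all genes). With PBS replicate 3 also left out the median was 0.05, with 2 higher and 1 lower (Fasn), against 35.1% and 30.3% of all genes. Markers of neutrophils, erythroid cells and lymphocytes were higher in the same libraries as Elovl6, Fads2, Scd1 and Mvd. Genes called lower, such as Dhcr7 and Idi1, fell in the same comparison. Of the 12 neutrophil genes all were called higher, with summed normalized counts of 20469 to 46882 in PBS and 2048253 to 2116115 in the pIpC libraries. Of the erythroid genes 10 of 10 tested were higher (1859 to 3082 against 7887 to 10409), with Slc4a1 at 0 in all PBS libraries. The 10 B cell genes were higher (1781 to 3001 against 10654 to 40535), with Ms4a1 at 0 in PBS, and so were the 6 T and NK cell genes that passed the filter of 10 listed. Trac, which did not pass it, was at 0 in PBS. Of 12 macrophage and stromal genes 9 were higher and 2 lower, and of 15 proliferation genes 7 were higher and 2 lower. Beside all these counts, 25.0% of all genes were called higher and 20.4% lower. The labels name GFP+ cells and the study's methods lineage-negative c-Kit+ cells, and no value here gives the purity of either sort. The part of other cell types or of mature cells in the rises was not tested.

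The pIpC libraries were themselves unequal in sterol genes, a pattern chosen for description after the values were seen. pIpC replicate 1 was the highest of its group in 21 of the 32 genes (65.6%), against 35.9% of all genes. It exceeded the mean of the other pIpC libraries by more than 0.3 on the log2 scale in 12 genes (37.5%), against 11.6% of all genes. pIpC replicates 2 and 3 did so against their own group in 2 and 0 of the 32, against 13.1% and 11.2% of all genes. pIpC replicate 3 lay more than 0.3 below the others in 7 genes (21.9%), against 10.6% of all genes. The ratio of pIpC replicate 1 to the other pIpC libraries was 1.58 for Fdps, 1.57 for Sqle, 1.59 for Lss, 1.53 for Cyp51, 1.58 for Insig1 and 1.47 for Scd2. These genes span farnesyl diphosphate synthesis, the steps on either side of lanosterol, the sterol sensor and a desaturase. Dhcr7 (1.01), Srebf2 (1.03), Insig2 (1.03), Acly (1.00) and Elovl6 (1.03) were level among the pIpC libraries, and Mvd (0.852), Hsd17b7 (0.726) and Scd1 (0.766) were lower in replicate 1. Fdps, Lss and Cyp51 lost their calls without pIpC replicate 2 or 3, and Sqle and Insig1 gained theirs without pIpC replicate 1. The B cell markers had mean rises over PBS of 4.84, 5.34 and 5.65 on the log2 scale in pIpC replicates 1, 2 and 3. Ighm, the most abundant of them, went against that order at 39147, 8397 and 17362 normalized counts, and the part of B cells was not tested. Across the 32 genes the log2 ratio had a Spearman rho of 0.04 with transcript length, and of -0.248 over 12290 genes, as a description over genes that share the same libraries.

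**Figure D4:**
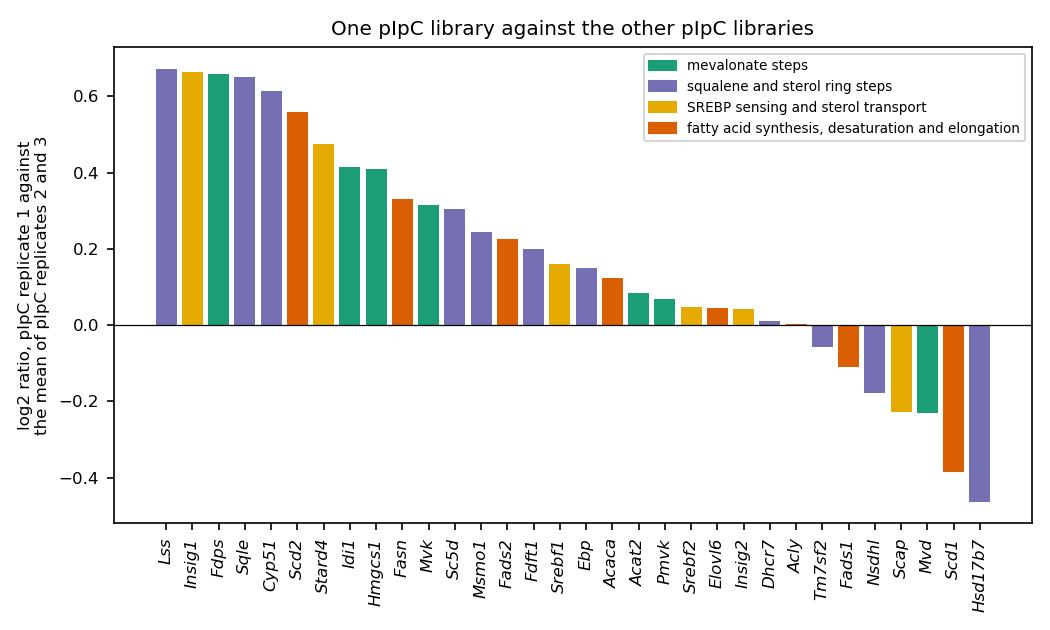
Log2 ratio of pIpC replicate 1 to the mean of pIpC replicates 2 and 3 for each gene (y axis), ordered by size and coloured by role. Lss, Insig1, Fdps, Sqle and Cyp51 lead at 0.61 to 0.67, and Hsd17b7 is lowest at -0.46.

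The deviation of PBS replicate 3 followed transcript length. The log2 ratio of this library to the mean of the other PBS libraries had a Spearman rho of -0.794 with the length of the longest coding transcript over the 32 genes, and -0.649 over 12290 genes, both descriptions of the same libraries. Short genes such as Ebp (log2 ratio 1.04), Pmvk (0.71) and Mvk (0.71) were high in it, and long ones such as Acaca (-1.02), Fasn (-0.88) and Scd2 (-0.83) were low. The mevalonate genes, with short transcripts, had a median log2 ratio of 0.46 in this library and the fatty acid genes, with long ones, a median of -0.75. Without it the median log2 fold change moved from -0.39 to -0.16 for the mevalonate steps, from -0.44 to -0.23 for the sterol ring steps and from 0.59 to 0.34 for the fatty acid genes, each keeping its sign. Mvd, Idi1, Dhcr7, Scd1, Elovl6 and Fads2 were called with every library left out in turn.

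**Figure D5:**
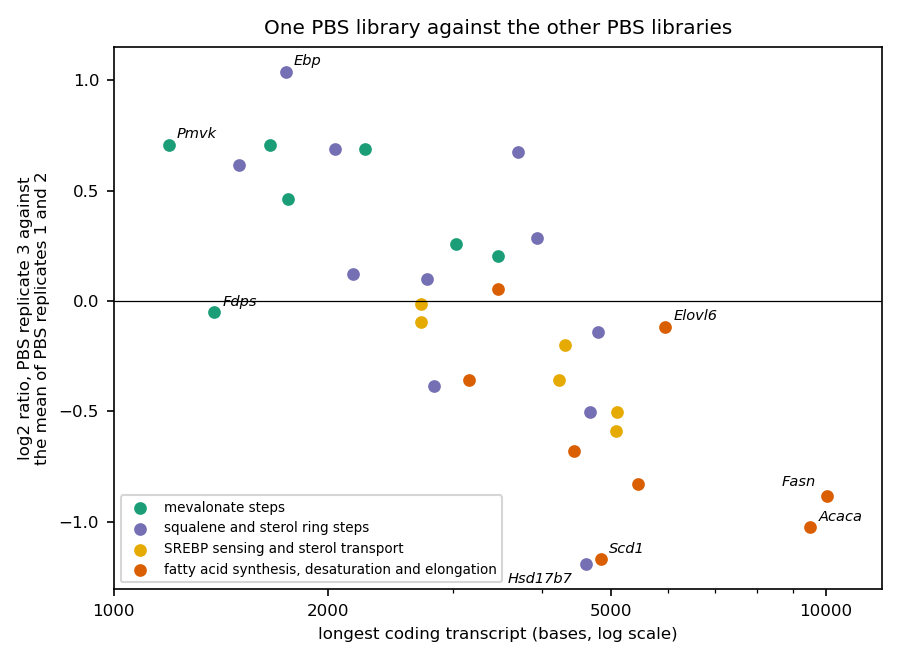
Log2 ratio of PBS replicate 3 to the mean of PBS replicates 1 and 2 (y axis) against the length of the longest coding transcript in bases (log x axis), 1 point per gene, coloured by role. The ratio falls with length, from 0.71 for Pmvk to -0.88 for Fasn, with Fdps (-0.05) and Elovl6 (-0.12) off the trend.

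Genes of the same pathways outside the set were read from lists written with earlier results of these data known. Of 6 other sterol and isoprenoid enzymes 1 was called higher and 2 lower (25.0% and 20.4% of all genes), and without PBS replicate 3 it was 2 and 2 (35.1% and 30.3%). The highest of these, Lbr, an inner nuclear membrane protein with sterol reductase activity, was not called (log2 fold change 0.57, limma adjusted p = 0.152). Of 14 genes for SREBP processing and its partner factors 4 were called higher and 2 lower (6 and 5 without PBS replicate 3), or 42.9% called against 45.3% of all genes, from Usf1 (-0.56, limma adjusted p = 0.027) to Sp1 (0.69, not called, limma adjusted p = 0.201).

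Genes that move sterol into, within and out of cells were mostly called higher. Of 15 tested out of 16 listed, 8 were higher and 1 lower (25.0% and 20.4% of all genes), with a median log2 fold change of 0.70 (0.56 without PBS replicate 3). The highest was Abca1, the exporter of cholesterol to lipoprotein, with 11.2, 35.4 and 4.53 normalized counts in PBS and 137.7, 142.0 and 218.5 in the pIpC libraries (log2 fold change 3.60, standard error 0.66, limma adjusted p = 0.0059), and the lowest was Npc2, which hands cholesterol out of the lysosome (-1.09, limma adjusted p = 0.027). Abca1 is also expressed by macrophages, whose markers C1qa and Mrc1 were higher in the same libraries (log2 fold changes 3.82 and 4.55), while Adgre1 was lower at -3.80, and their part was not tested. Of 19 tested out of 21 other fatty acid genes 6 were higher and 3 lower, or 47.4% called against 45.3% of all genes, which is near that share. Without PBS replicate 3 they were 10 and 4, against 35.1% and 30.3% of all genes. The highest was Fads3, the paralog next to Fads1 and Fads2, with 3.46, 1.01 and 0 normalized counts in PBS and 63.9, 92.0 and 84.1 in the pIpC libraries (log2 fold change 5.27, standard error 0.58, limma adjusted p = 0.000582), and the lowest was Mcat, the malonyl transferase of mitochondrial fatty acid synthesis (-0.67, limma adjusted p = 0.0605). Like Scd1 and Fads2, Fads3 passed the filter on low values through the pIpC group alone.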

How the data were processed

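RNA was sequenced from 6 bone marrow samples, 3 PBS and 3 pIpC. The authors deposited 1 table of gene counts divided by a size factor per library, a signal with whole reads recovered here (every value above 0 within 0.05 of a whole read). The submitters' processing notes name HISAT2 2.2.1, SAMtools, featureCounts of Subread, edgeR and GRCm38, and unstranded libraries, whereas the study's methods name nf-core/rnaseq with STAR and RSEM, DESeq2 and stranded libraries. A count that is not split by strand takes in overlapping genes, and one that gives shared reads to no gene or to several changes genes with copies, so shared 100-base stretches are given. Reads per library were 22378154, 19277439 and 21230930 for PBS replicates 1 to 3 and 23248511, 22348517 and 23586722 for pIpC. No column of sample values was left out.

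A gene entered the fit if its normalized counts averaged 10 or more (15020 of 55487). The fit was made on log2(normalized count + 1) by limma 3.58.1 in R 4.3.3, 2-sided, with the prior variance following intensity, with Benjamini-Hochberg adjustment over all genes tested and a threshold of 0.1. Medians of lists carry no test. Ratios of read shares have exact binomial intervals that cover counting error only. Levels between genes are per kb of the longest coding transcript (GENCODE on GRCm38). Promoter windows of 250 bases before each start are from RefSeq, GRCm38.p6.

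Each library was left out in turn. Other alternatives were edgeR 4.0.16 and DESeq2 1.42.0 on recovered reads, a replicate block, a threshold of 0.05, a constant prior variance, quantile or median centring of the values, no filter or one at 50, and pseudocounts of 0.1 and 10. Removal of the transcript length trend was added after seeing the data. Same-numbered libraries deviated with correlations of -0.117, 0.143 and 0.041, so the numbers were not taken as pairs. In simulated counts of 15020 genes with a log2 change of 2 put into 200, limma found 81.5% of those, and 11.4% of its calls were unchanged genes.

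Members and lists were chosen with earlier results of these data known. Given library by library are SREBP and its sensors, named steps of each branch, and the 3 called genes of largest change in each role, with the highest and lowest gene of each other list, of which some are not reported here. Genes outside this rule were named after their values were seen.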

Additional observations from a re-analysis of the deposited data

How the results depend on the processing

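Of 607 log2 fold changes of the 32 genes recomputed under alternatives, 537 kept their direction and side of the threshold, 33 lost a call, 26 gained one and 11 changed sign. The calls of Mvd, Idi1, Dhcr7, Scd1, Elovl6 and Fads2 held under every alternative in which they passed the filter. Leaving out 1 library moved the genes of the set called higher between 4 (without pIpC replicate 1 or 3) and 10 (without PBS replicate 3) and those called lower between 2 (without pIpC replicate 2 or 3) and 11 (without PBS replicate 3), and the median log2 fold change of the sterol enzymes from -0.52 to -0.19. Fewer libraries also lowered the calls over all genes, to between 4551 and 4943 without a pIpC library, while without PBS replicate 3 they rose to 9829. With the transcript length trend removed 11 genes of the set were called lower, newly Fasn, Srebf1, Scap, Stard4 and Sc5d, and 8 higher, newly Pmvk and Msmo1, while over all genes 3284 were lower and 3961 higher of 12290. Fdps lost its call (-0.54, limma adjusted p = 0.166), and Acaca changed sign to -0.12. With that and the replicate block Acaca was also at -0.12 and Brd9, at 0.30, passed the threshold (limma adjusted p = 0.0905). By quantile normalization the median over all genes was -0.12, with 3244 genes called higher and 4078 lower. Signs that changed belonged to genes that were not called in the main test: Pmvk was at -0.0025 by edgeR and ranged from -0.084 to 0.29 with 1 library left out, Fdft1 from -0.22 to 0.15, Hsd17b7 from -0.15 to 0.47, Stard4 from -0.29 to 0.00012, Acaca from -0.025 to 0.53 and Fads1 from -0.082 to 0.010. The causes were not tested.

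Under the replicate block 6095 genes were called, and of the set Mvk, Tm7sf2 and Insig2 lost their calls (limma adjusted p = 0.148, 0.111 and 0.112), leaving 5 higher and 5 lower. The libraries share only a number. PBS replicates 1 and 3 correlated best with pIpC replicates 2 and 1 (0.154 and 0.122), not with their own numbers (-0.117 and 0.041). Read from the pIpC side, replicates 1 and 2 correlated best with PBS replicates 3 and 1 (0.122 and 0.154), not with their own numbers (-0.117 and 0.143). Depth limits Scd1 and Fads2 in PBS, at 4 and 17 reads over the group.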
